A study of Mus musculus with 97 samples.

Results

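A set of 41 mouse genes was followed through the sorted cell cycle of an embryonic stem (ES) cell line: the proteins that build and run the DNA replication fork, the enzymes that supply it with nucleotides, and the factors that package the new DNA. The genes were taken by symbol from a list of known functions that was drawn up with earlier results of these data in view, and all 41 had an entry in the deposited table of 37620 genes. Each passed the filter on low counts, as did 16011 genes in all. RNA came from 18 of the 97 samples of the study, which otherwise profiled transcription factor binding and chromatin accessibility in interphase and mitosis. The cells carry a Sox2-AID allele, in which the pluripotency factor Sox2 is fused to a degron that auxin triggers, and every group carries it, the controls included. They were grown in serum with the cytokine LIF, and the labels do not say whether inhibitors listed as optional were added, or whether the line is a single clone. Hoechst-33342, a dye that reports DNA content, was added at 20 µM in the final 20 min of culture. Cells were then sorted by Hoechst and GFP level into early G1, late G1 and G2, the gap phases before and after DNA synthesis. What GFP reports is not given in the labels. Auxin-treated cells had 0.5 mM auxin for 3 h, and the untreated groups are labelled as without auxin. Each of the 6 groups of phase and treatment held 3 libraries, numbered 1 to 3.

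At the fork, the CMG helicase (the Mcm2-7 ring with Cdc45 and GINS) unwinds DNA, RPA coats the single strands, and the polymerase alpha and primase complex lays down primers. The replication factor C complex then loads the ring-shaped clamp PCNA, which tethers polymerases delta and epsilon. Transcription of many of these genes is driven by E2F factors once cyclin-dependent kinases inactivate the retinoblastoma proteins late in G1. ES cells are known for a short G1 with high kinase activity, and their E2F targets are held less tightly off than those of differentiated cells.

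Total expected counts were 24841963 to 37587322 a library. Values below are CPM, counts scaled to 1 common library size with TMM factors, except where TPM, the authors' values per transcript length, are named. RNA was pooled over the sorted cells of a library, so fewer cells expressing a gene and less RNA per cell cannot be told apart. All 10 ES cell markers had a median over 1 TPM, while the 10 fibroblast markers summed to 1.32 to 2.38 TPM in a library. The 5 trophectoderm markers summed to 4.01 to 4.5 TPM in untreated early G1 and 2.48 to 3.36 TPM in late G1, and with auxin to 5.08 to 5.2 and 3.07 to 3.91 TPM, so that early G1 was higher with no overlap. The 5 primitive endoderm markers summed to 0.64 to 0.78 TPM in untreated late G1 and 1.29 to 1.35 TPM in G2, and with auxin to 0.67 to 0.88 and 0.85 to 1.79 TPM. The part of either list in the phase results below was not tested. Sox2 RNA was at 277 to 413 CPM in all 18 libraries; this does not check the loss of the protein. Of 20 genes of G2 and mitosis, 19 were higher in G2 than in late G1 in both treatments. Histone gene entries, whose transcripts belong to S phase, took 0.406% ± 0.041 (SD, n = 3) of counts in untreated early G1, 1.31% ± 0.37 in late G1 and 0.507% ± 0.12 of those in G2. The labels name no gate for S phase, and the part of S-phase cells in the late G1 results below was not tested. The untreated libraries numbered 3 were the lowest of their group in the summed CPM of the 41 genes, in each of the 3 phases. So were the auxin libraries numbered 3 in early and late G1. In summed TPM the untreated libraries numbered 1 were the lowest in early and late G1. In the RefSeq annotation 12 of the 41 overlap another protein-coding gene (Cdc45, Chaf1a, Chtf18, Fen1, Gins2, Lig1, Pold2, Pole2, Rfc4, Rpa1, Tk1 and Ung). Whether counting used strand is not given in the sources used here, so reads of such pairs could have been mixed. Nor do the labels say that replicates were separate cultures, and p-values then measure the spread between these libraries.

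The main pattern was a peak in late G1. Against early G1, 29 of the 41 genes were higher in late G1 without auxin and 0 were lower, at a Benjamini-Hochberg adjusted p under 0.05 in edgeR's quasi-likelihood test over all genes. Of all genes tested, 3.27% were called higher and 3.75% lower in that comparison. In auxin-treated cells 30 of the 41 were higher and 0 lower, where 3.21% of all genes were called higher and 4.21% lower. The median log2 fold change of the 41 was 0.47 without and 0.49 with auxin, beside a median over all genes of -0.000629 and -0.00695. All 41 fitted changes were positive in both treatments, from 0.12 for Timeless to 0.91 for Chaf1b without auxin. Summed, the 41 genes held 0.305% to 0.351% of counts in untreated early G1, 0.436% to 0.479% in late G1 and 0.331% to 0.363% of those in G2. The late G1 shares did not overlap those of the other phases. On log2(TPM + 1) all 41 changes were again positive in both treatments, while the number of genes called was 10 without and 8 with auxin. On that scale 81 of all genes tested were called higher and 158 lower without auxin, and 62 and 90 with it. With the replicate number as a block, which by the rule used pairs the libraries of each phase comparison, 38 were higher without and 39 with auxin, where 11.4% and 10.9% of all genes were called higher.

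From late G1 to G2 the direction turned. Without auxin 18 of the 41 genes were lower in G2 than in late G1 and 0 were higher, where 2.32% of all genes were called lower and 2.72% higher. With the replicate number as a block the count was 29 lower, where 7.79% of all genes were called lower. With auxin 20 were lower and 0 higher, against 2.43% lower and 3.48% higher of all genes. The median log2 fold change was -0.27 without and -0.31 with auxin. On log2(TPM + 1) the count was 8 lower in each treatment. On that scale 51 of all genes tested were called lower and 151 higher without auxin, and 44 and 135 with it. By mean CPM, late G1 was the highest phase for 38 of the 41 genes without auxin and for 36 with it, and early G1 was the lowest for 35 and 36. The share over all genes was not counted for this order of phases.

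Single libraries separated in most genes. In 35 of the 41 genes, all 3 late G1 values lay above all 3 early G1 values without auxin, where 10.7% of all tested genes did so, and in 37 with auxin, where 12.9% did. Comparing libraries of the same number, late G1 was above early G1 in 123 of 123 gene and library pairs without auxin and in 122 of 123 with it. These pairs are the 41 genes over the same 3 pairs of libraries, so they are not separate observations. The share over all genes was not counted for them. G2 lay below late G1 in every library for 26 genes in each treatment, where 9.79% and 11.2% of all genes did. Leaving out 1 library at a time, 19 of the 29 untreated late G1 calls passed in all 6 repeats. The other 10 were Rfc5, Pola1, Pola2, Prim2, Rpa1, Lig1, Gins3, Gins4, Chtf18 and Tipin, with the highest adjusted p at 0.145, for Gins4 without late G1 replicate 1. These repeats were run without the replicate block. With the block and all libraries each of the 10 passed, Gins4 at an adjusted p of 7.93e-05. Of the 18 untreated G2 calls, 12 passed in all 6 repeats and Chaf1a, Tk1, Rfc3, Pold3, Rpa1 and Fen1 did not. Each of these passed with the block and all libraries. The count of 20 with auxin was 12 without late G1 replicate 1 and 13 without G2 replicate 3. With auxin, 20 of the 30 late G1 calls and 12 of the 20 G2 calls passed in all 6 repeats.

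**Figure D1:**
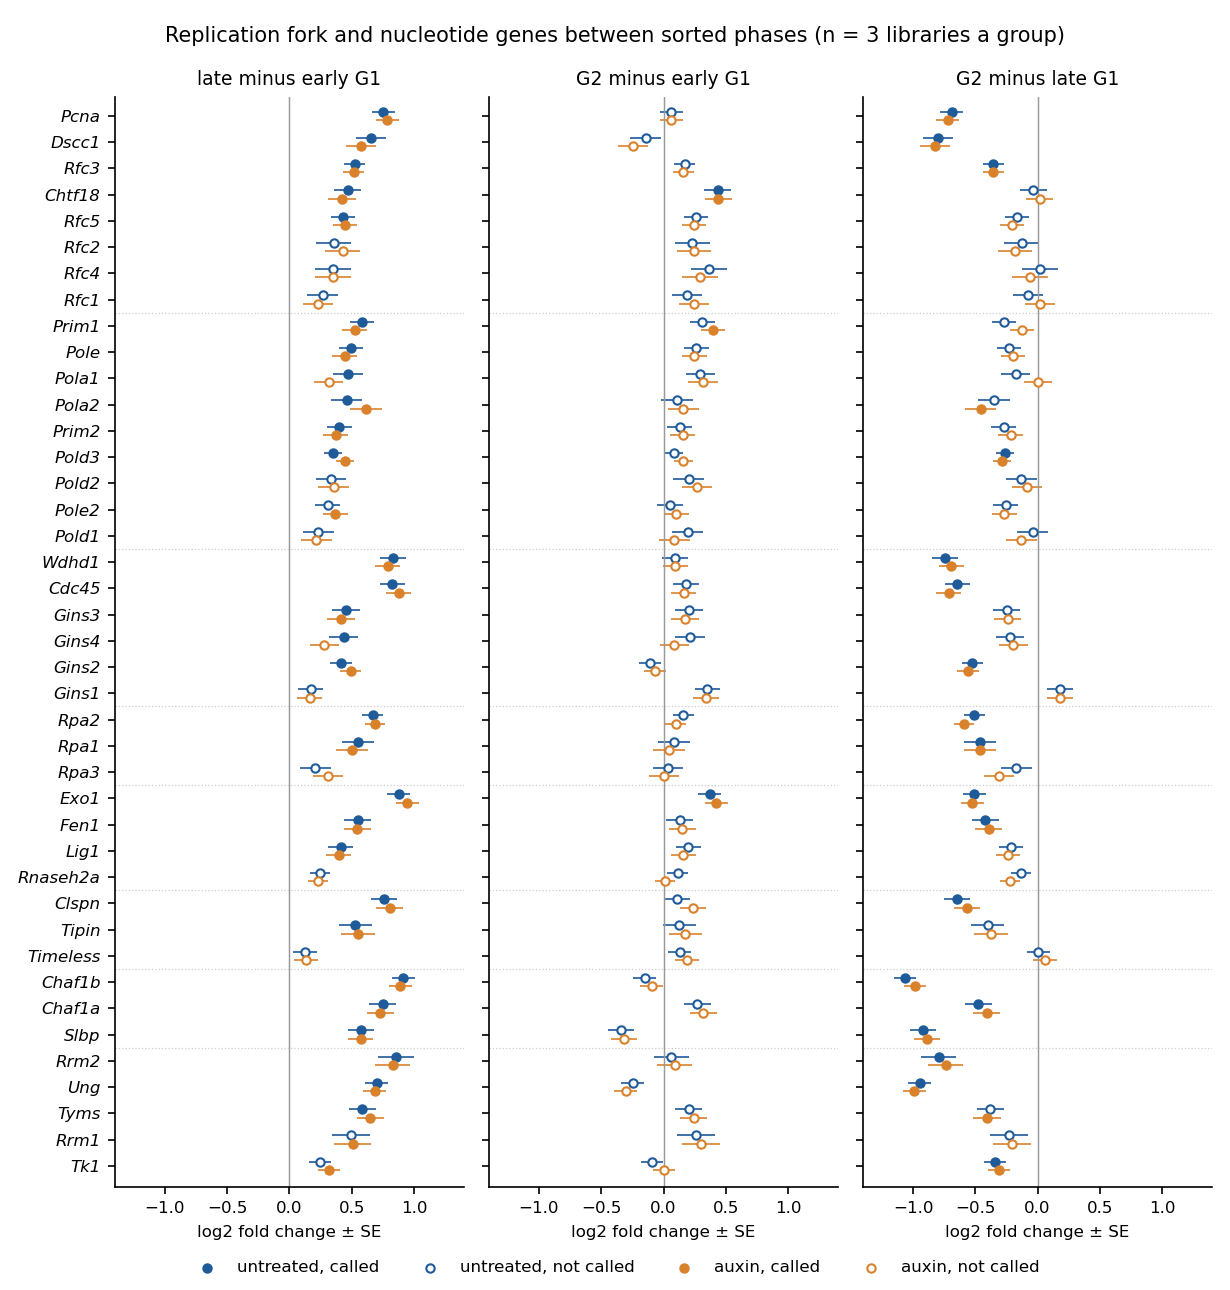
Log2 fold change (x axis, ± SE) of the 41 genes, grouped by role from the clamp and its loaders at the top to nucleotide supply at the bottom, in 3 phase comparisons, with untreated cells in blue and auxin-treated cells in orange (n = 3 libraries a group). Filled points passed an adjusted p under 0.05 in edgeR without the replicate block. Filled are 29 and 30 in the late against early G1 panel and 2 and 3 in the G2 against early G1 panel. In the G2 against late G1 panel 18 and 20 are filled, and all called points there lie left of 0.

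The promoters of the genes were also read for E2F-type letters. RefSeq promoters (GRCm38.p6, 250 bases before to 50 after the gene start) matched 32 of the 41 genes; Rfc2, Prim2, Pole, Gins1, Gins2, Gins4, Dscc1, Tipin and Exo1 were not matched. Each window was searched on both strands for the heptamer TTCCCGC and for the variants of its middle pair of bases, which read TTGGCGC with a pair of G, TTGCCGC with G before C, or TTCGCGC with C before G. Some genes had more than 1 promoter, and a gene was counted if any of its promoters held a match. At least 1 of these heptamers was found for 20 of the 32 genes, or 62.5%. The shares were 10.9% of 27025 genes with a promoter and 19.3% of the 10342 tested genes with one. The longer form with 1 more T in front, which holds the heptamer, was in 8 of 32 (25.0%), beside 4.6% of tested genes. The pentamer CCAAT was in 18 (56.2%, beside 43.0%) and the hexamer TTTGAA, the core of the element of many G2 genes, in 4 (12.5%, beside 14.0%). Median GC content was 62.2% in the promoters of the 32 genes and 60.7% in those of the tested genes. Within the set, the heptamer was found for 14 of the 22 genes called in untreated late G1 and for 6 of the 10 others. The 80 bases before the start are printed for the 8 genes with a heptamer there, which is in capitals, and for 2 genes with none there, Pcna, which was called in late G1, and Timeless, whose late G1 difference was the smallest. All are written 5′ to 3′ along the gene's strand.
Pcna (chr2:132253181-132253260, minus strand): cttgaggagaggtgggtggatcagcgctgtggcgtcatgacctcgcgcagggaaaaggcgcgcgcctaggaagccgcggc
Chaf1a (chr17:56040336-56040415, plus strand): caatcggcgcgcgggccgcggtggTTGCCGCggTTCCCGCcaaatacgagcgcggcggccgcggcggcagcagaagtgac
Rrm1 (chr7:102441615-102441694, plus strand): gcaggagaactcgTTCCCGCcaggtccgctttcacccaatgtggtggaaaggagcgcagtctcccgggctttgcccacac
Rfc3 (chr5:151651209-151651288, minus strand): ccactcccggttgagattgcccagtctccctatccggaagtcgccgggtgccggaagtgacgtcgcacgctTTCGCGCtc
Prim1 (chr10:128015135-128015214, plus strand): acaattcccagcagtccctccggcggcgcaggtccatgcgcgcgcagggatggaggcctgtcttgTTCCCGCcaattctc
Rpa2 (chr4:132768280-132768359, plus strand): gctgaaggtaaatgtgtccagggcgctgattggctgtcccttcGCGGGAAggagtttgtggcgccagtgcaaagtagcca
Rpa3 (chr6:8259142-8259221, minus strand): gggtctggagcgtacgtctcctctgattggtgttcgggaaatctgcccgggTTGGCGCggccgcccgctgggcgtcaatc
Fen1 (chr19:10203922-10204001, minus strand): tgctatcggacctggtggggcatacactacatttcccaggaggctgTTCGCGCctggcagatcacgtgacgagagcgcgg
Gins3 (chr8:95633479-95633558, plus strand): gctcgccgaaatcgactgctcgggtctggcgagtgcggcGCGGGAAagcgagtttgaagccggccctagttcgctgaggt
Timeless (chr10:128237986-128238065, plus strand): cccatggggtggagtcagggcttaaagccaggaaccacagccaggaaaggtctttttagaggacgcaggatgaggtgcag
Both orientations occur: in Rpa2 and Gins3 the heptamer reads on the opposite strand. Chaf1a holds 2 of them close together. A match is a run of letters in a window and says nothing of binding. A link of these letters to the phase changes was not tested.

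**Figure D2:**
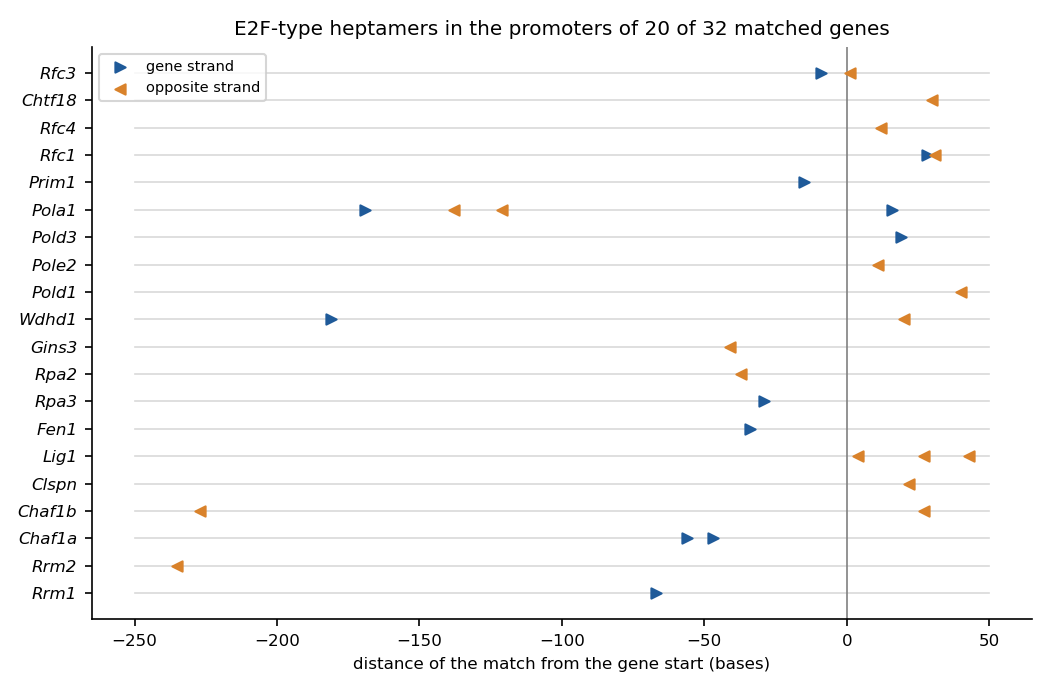
Position (x axis, bases from the start at 0) of each E2F-type heptamer in the promoters of the 20 genes that hold one. Rows are genes, with matches on the gene's strand in blue and on the opposite strand in orange. Matches of Lig1 come from more than 1 promoter, each measured from its own start and drawn on the same line. Matches of Prim1, Gins3, Rpa2, Rpa3, Fen1, Chaf1a and Rrm1 lie within 80 bases before the start, Rfc3 has one there and another on the opposite strand at the start itself, and others such as Rrm2, Chaf1b and Pola1 have matches farther out.

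Per transcript length, the clamp stood far above the rest of the fork. In untreated late G1 Pcna was at 93.73 TPM ± 4.26 (SD, n = 3), and the next gene, Rrm2, at 29.38 ± 3.89, with no overlap between their libraries. Tipin at 29.24 ± 1.01 TPM could not be separated from Rrm2 by the spread, and Slbp followed at 27.38 ± 0.329. At the low end were Gins3 at 1.723 ± 0.0513 and Dscc1 at 1.637 ± 0.258 TPM, which overlapped. Of the 40 neighbouring pairs in this order, 31 overlapped in their 3 libraries and 9 did not. Subunits of a single complex were thus listed at different RNA levels: within GINS, Gins4 was at 13.7 TPM ± 0.881, Gins1 at 10.55 ± 0.199, Gins2 at 5.777 ± 0.24 and Gins3 at 1.723 ± 0.0513.

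The clamp and its loaders are 8 genes: Pcna, the large loader subunit Rfc1, the small subunits Rfc2 to Rfc5, and Chtf18 and Dscc1 of an alternative loader that also serves sister chromatid cohesion. In late G1 against early G1, 5 of the 8 rose in both treatments, Pcna, Dscc1, Rfc3, Chtf18 and Rfc5, and in G2 against late G1 3 fell in both, Pcna, Dscc1 and Rfc3. Untreated Pcna was at 341, 374 and 308 CPM in early G1, 622, 569.8 and 532 CPM in late G1 and 364, 369 and 336 in G2. With auxin it was at 368, 378 and 378 CPM in early G1, 679.5, 625 and 632 CPM in late G1 and 396, 347 and 430.0 in G2. In both treatments every late G1 library lay above every library of the other phases, and early G1 overlapped G2. The late minus early G1 log2 fold change was 0.75 ± 0.093 (SE) without auxin (adjusted p = 6.84e-05) and 0.78 ± 0.093 (SE) with it (adjusted p = 4.76e-05). From late G1 to G2 it fell by 0.69 ± 0.093 (SE) on the log2 scale without auxin (adjusted p = 0.000114). A processed copy listed as Pcna-ps2 had 246 to 675 counts a library, beside 9097 to 23314 for Pcna, and reads of the pair could be split between them.

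Dscc1 was the least abundant of the 41 and was at 5.61, 6.87 and 6.42 CPM in early G1, 8.85, 9.75 and 11.2 CPM in late G1 and 5.68, 5.48 and 5.94 in G2 without auxin. With auxin its values were 6.76, 6.01 and 7.21 CPM in early G1, 10.6, 9.78 and 9.34 CPM in late G1 and 5.41, 5.59 and 5.81 in G2. All late G1 libraries were the highest, and its fall to G2 of 0.80 ± 0.12 (SE) on the log2 scale was among the 4 largest of the set (adjusted p = 0.000394 without and 0.00024 with auxin). Chtf18, its partner in the same complex, passed no test of a fall. Without auxin it was at 62.4, 69.4 and 63.5 CPM in early G1, 79.3, 87.5 and 104 CPM in late G1 and 80.9, 79.6 and 103 in G2, and with auxin at 62.3, 68.7 and 58.8 CPM in early G1, 77.7, 91.9 and 85 CPM in late G1 and 84.2, 89.5 and 83.7 in G2. Late G1 and G2 overlapped while early G1 lay below both. The G2 minus late G1 change of Chtf18 was -0.03 ± 0.11 (SE) (adjusted p = 0.923), against a late minus early G1 change of 0.47 ± 0.11 (SE) (adjusted p = 0.0142). The difference between the 2 partners was not tested. Rfc3 rose by 0.52 ± 0.083 (SE) into late G1 without auxin (adjusted p = 0.000768), from 33.2, 32.8 and 30.7 to 51.7, 42.6 and 44.8 CPM. In edgeR without the block, Rfc1, Rfc2 and Rfc4 passed no phase comparison, while DESeq2 called Rfc2 higher in late G1 with auxin. Without auxin the edgeR late minus early G1 values of the 3 genes were 0.27 ± 0.12 (SE), 0.36 ± 0.14 (SE) and 0.35 ± 0.14 (SE), with overlapping libraries in each. With the replicate block all 3 rose in late G1, at an adjusted p of 0.000733, 0.000566 and 0.00292 without auxin, and were higher in G2 than in early G1, at 0.0162, 0.0223 and 0.00328, and the same 6 calls were made with auxin.

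Of the 9 genes of the polymerases and primase, 6 rose in late G1 without auxin (Prim1, Pole, Pola1, Pola2, Prim2 and Pold3) and 6 with it (the same but Pole2 in place of Pola1). Only Pold3 fell from late G1 to G2 without auxin, and Pold3 and Pola2 with it. Prim1, the catalytic primase subunit that makes the RNA primer, was at 57, 49.7 and 47.1 CPM in early G1, 84.4, 70.2 and 75.5 CPM in late G1 and 69.6, 62.6 and 58.8 in G2 without auxin. The auxin-treated values were 57.3, 50.9 and 52.2 CPM in early G1, 83.2, 71.4 and 75.7 CPM in late G1 and 74, 63.6 and 73.3 in G2. Early G1 was below both other phases in every library, so that Prim1 rose into late G1 (0.58 ± 0.099 (SE), adjusted p = 0.00145 without auxin) without a called fall in G2 (-0.27 ± 0.099 (SE), adjusted p = 0.138, or 0.00257 with the replicate block). Pole, the catalytic subunit of the leading-strand polymerase, was at 94.9, 105 and 97.1 CPM in untreated early G1 and 127, 139.5 and 152 in late G1, with no overlap (0.49 ± 0.099 (SE), adjusted p = 0.00523). Pold3, an accessory subunit of polymerase delta, had the smallest SE of the 41 in this comparison, with 36.7, 35.8 and 33.6 CPM in early G1, 45, 44.6 and 45.5 CPM in late G1 and 38.2, 37.9 and 36.3 in G2. Its fall to G2 was small at 0.27 ± 0.073 (SE) on the log2 scale and passed (adjusted p = 0.0402). The fall was lost in each of the 6 repeats, run without the replicate block, that left out a library. With the block and all libraries it passed (adjusted p = 0.00538). The delta subunits Pold1, the catalytic one, and Pold2 passed no comparison, at 0.23 ± 0.12 (SE) and 0.33 ± 0.12 (SE) for late minus early G1. With the replicate block both rose in late G1. Untreated, the adjusted p was 0.0172 for Pold1 and 0.000518 for Pold2, and under auxin 0.0287 and 0.000232, and Pold2 was also higher in G2 than in early G1 in both treatments (adjusted p = 0.0296 and 0.00455).

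Among the 6 helicase cofactors, 5 rose in late G1 without auxin and 4 with it, and Wdhd1, Cdc45 and Gins2 fell in G2 in both. Cdc45, which binds the Mcm2-7 ring with GINS to activate it, was at 40.2, 40.7 and 30.2 CPM in early G1, 71, 64.6 and 61.2 CPM in late G1 and 44.6, 43.3 and 38 in G2 without auxin. In auxin-treated cells it stood at 41.3, 41.6 and 38.7 CPM in early G1, 76.7, 70.6 and 75.9 CPM in late G1 and 47, 43.5 and 45.6 in G2. Late G1 stood clear of the other phases in all libraries. Its late G1 rise was 0.82 ± 0.1 (SE) without auxin (adjusted p = 6.72e-05) and 0.88 ± 0.1 (SE) with it (adjusted p = 3.42e-05). Wdhd1, which links the helicase to polymerase alpha, followed the same course at 43.2, 41.2 and 33.6 CPM in early G1, 73.2, 67.7 and 69.5 CPM in late G1 and 45.2, 42 and 38.5 in G2 without auxin. Auxin-treated libraries held 42.5, 42.5 and 38.6 CPM in early G1, 73.6, 67.2 and 72.3 CPM in late G1 and 49.6, 38.2 and 44.2 in G2. Early G1 and G2 overlapped and late G1 stood above them, with a rise of 0.83 ± 0.1 (SE) (adjusted p = 6.84e-05) and a fall of 0.74 ± 0.1 (SE) in G2 (adjusted p = 0.000148) without auxin.

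The 4 GINS subunits form a single complex, and their phase values spread, though differences between the subunits were not tested. Gins2 went from 42.5, 45.2 and 42.8 CPM in untreated early G1 to 61.4, 59.3 and 53.1 CPM in late G1 and 39, 41.4 and 40.5 in G2, so that G2 lay below early G1 in every library. Gins1 instead was at 43.6, 42.6 and 36.1 CPM in early G1, 50.1, 43.2 and 44.3 CPM in late G1 and 55.2, 52.4 and 48.4 CPM in G2. It was the highest in G2 by mean in both treatments. In edgeR without the block it passed no comparison, at 0.17 ± 0.1 (SE) for late minus early G1 and 0.35 ± 0.1 (SE) for G2 minus early G1 (adjusted p = 0.0631). DESeq2 called Gins1 higher in G2 than in early G1 in both treatments. With the replicate number as a block its G2 minus early G1 value was 0.35 ± 0.073 (SE) (adjusted p = 0.0024). Gins3 rose by 0.46 ± 0.11 (SE) and Gins4 by 0.43 ± 0.12 (SE) in late G1 without auxin.

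RPA is a trimer, and differences between its subunits were not tested. Rpa1, which carries the main DNA-binding domains, and Rpa2 rose in late G1 and fell in G2 in both treatments. Rpa3, the small subunit, passed none of the phase comparisons without the replicate block. Rpa2 was at 103, 98.9 and 83.2 CPM in early G1, 159, 146 and 148 CPM in late G1 and 110.5, 105 and 103 in G2 without auxin. Its auxin-treated levels were 102, 99.4 and 108 CPM in early G1, 174, 158 and 166 CPM in late G1 and 115, 103 and 114 in G2. Late G1 did not overlap the other phases, with a rise of 0.67 ± 0.083 (SE) (adjusted p = 6.98e-05) and a fall of 0.51 ± 0.083 (SE) (adjusted p = 0.000826) without auxin. Rpa1 had a larger spread, at 272, 251 and 202 CPM in early G1 and 403, 354 and 302 in late G1, and still did not overlap. Leaving out 1 library at a time, its rise was lost in 2 of 6 repeats without and 3 of 6 with auxin. Its fall was lost in 4 of 6 and in 6 of 6, while Rpa2 lost 0 of these calls. With the replicate block and all libraries the Rpa1 rise and fall passed in both treatments. For Rpa3 the late minus early G1 value was 0.21 ± 0.12 (SE) (adjusted p = 0.358), with 32.6, 31.9 and 30.9 CPM beside 41.8, 33.3 and 35.1. With the block Rpa3 rose in late G1 in auxin-treated cells (0.31 ± 0.093 (SE), adjusted p = 0.0215) and fell in G2 (-0.31 ± 0.093 (SE), adjusted p = 0.023), and without auxin it again passed neither comparison.

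Of the 4 genes that process primers and flaps on the lagging strand, Exo1, Fen1 and Lig1 rose in late G1 in both treatments and Exo1 and Fen1 fell in G2. Exo1, a 5′ to 3′ exonuclease that also acts in mismatch repair, was at 85.6, 89.1 and 69.6 CPM in early G1, 154, 154 and 141 CPM in late G1 and 107, 112 and 97.1 in G2 without auxin. With auxin it was at 83.3, 89.2 and 74.3 CPM in early G1, 160.5, 157 and 158 CPM in late G1 and 109, 109 and 113 in G2. The 3 phases formed 3 separate steps, early G1 lowest, G2 between and late G1 highest, with no overlap in either treatment. Its late G1 rise was 0.88 ± 0.092 (SE) without (adjusted p = 1.5e-05) and 0.95 ± 0.093 (SE) with auxin (adjusted p = 7.19e-06). Fen1, the flap endonuclease, was at 98.4, 95.8 and 78.5 CPM in early G1, 151, 130.4 and 118 CPM in late G1 and 111, 96.4 and 91.2 in G2 without auxin. The nick sealer Lig1 rose by 0.41 ± 0.1 (SE) in late G1 without auxin (adjusted p = 0.0166) and passed no G2 comparison, while with the replicate block it fell from late G1 to G2 (adjusted p = 0.00983) and was higher in G2 than in early G1 (adjusted p = 0.0173). Rnaseh2a, the catalytic subunit of RNase H2, passed no comparison in edgeR without the block, at 0.25 ± 0.082 (SE) for late minus early G1 (adjusted p = 0.0835). DESeq2 called it higher in late G1 without auxin. With the block it rose in late G1 (adjusted p = 0.00356) and with auxin also fell in G2 (adjusted p = 0.00833).

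Timeless and Tipin form the fork protection complex, and Clspn, claspin, passes the checkpoint signal from ATR to Chk1. Clspn was at 40.6, 41 and 31.2 CPM in early G1, 67.9, 65.9 and 57.1 CPM in late G1 and 40.8, 40.9 and 40.1 in G2 without auxin. The auxin-treated values were 32.9, 39 and 30.9 CPM in early G1, 58.1, 63.5 and 57.6 CPM in late G1 and 40.5, 39.9 and 40.4 in G2. Late G1 was above the other phases in all libraries, by 0.76 ± 0.1 (SE) over early G1 without auxin (adjusted p = 0.000195), and it fell by 0.65 ± 0.1 (SE) in G2 (adjusted p = 0.000719). The difference between the 2 partners was not tested here either. Tipin was at 111, 106 and 89.3 CPM in early G1 and 170.1, 136 and 136 in late G1 without auxin, with no overlap (0.53 ± 0.14 (SE), adjusted p = 0.0225). Timeless was at 105, 108 and 84.9, 108, 112 and 104 and 109.8, 109 and 107 CPM in early G1, late G1 and G2, which overlapped throughout. Its late minus early G1 value of 0.12 ± 0.096 (SE) (adjusted p = 0.513) was the smallest of the 41 without auxin. With the replicate block and auxin, Timeless was higher in G2 than in early G1 (0.19 ± 0.059 (SE), adjusted p = 0.0295), as was Clspn (0.24 ± 0.075 (SE), adjusted p = 0.0344).

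All 3 genes of chromatin assembly and histone mRNA rose in late G1 and fell in G2 in both treatments. Chaf1b, the middle subunit of the CAF-1 histone chaperone that PCNA recruits, had the largest late G1 rise and the largest fall of the 41 in untreated cells. Its values were 29.6, 31.9 and 33.7 CPM in early G1, 65.7, 57 and 56.5 CPM in late G1 and 30.7, 28.8 and 26.1 in G2 without auxin. With auxin they were 33.1, 32.3 and 34.6 CPM in early G1, 60.2, 59.7 and 65.5 CPM in late G1 and 29.4, 29.7 and 34.5 in G2. Late G1 stood alone, and G2 overlapped early G1. The log2 fold changes without auxin were 0.91 ± 0.09 (SE) into late G1 (adjusted p = 7.32e-06) and -1.07 ± 0.091 (SE) into G2 (adjusted p = 3.61e-07). Chaf1a, the large subunit, rose by 0.75 ± 0.11 (SE) and fell by 0.48 ± 0.11 (SE), with 62.2, 65.8 and 73.1 CPM in G2 beside 56.1, 61.2 and 49.2 in early G1.

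Slbp, which binds the stem-loop of histone mRNA and whose protein is destroyed at the end of S phase, was at 124, 119 and 111 CPM in early G1, 198, 166 and 164 CPM in late G1 and 99.5, 89 and 90.2 in G2 without auxin. In auxin-treated cells it stood at 134, 118 and 135 CPM in early G1, 208, 168 and 197 CPM in late G1 and 106, 89.5 and 113 in G2. Late G1 was the highest and G2 the lowest phase in both treatments, with no overlap between any of the 3 phases. It rose by 0.58 ± 0.1 (SE) (adjusted p = 0.00244) and then fell by 0.92 ± 0.1 (SE) (adjusted p = 1.62e-05) on the log2 scale without auxin. Histone gene entries took the largest share of counts in the same late G1 libraries, and their part in the Slbp values was not tested.

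The 5 genes of nucleotide supply and uracil removal ranged in the size of their changes. Without auxin Rrm2, Ung and Tyms rose in late G1 and Rrm2, Ung and Tk1 fell in G2; with auxin all 5 rose and all but Rrm1 fell. Ribonucleotide reductase makes all deoxynucleotides and joins the large subunit Rrm1 with the small subunit Rrm2. Rrm2 was at 177, 182 and 121 CPM in early G1, 306, 313 and 248 CPM in late G1 and 178, 186 and 137 in G2 without auxin. Auxin-treated libraries held 172, 189 and 154 CPM in early G1, 308, 312 and 293 CPM in late G1 and 188, 191 and 169 in G2. Replicate 3 was the lowest in each untreated phase, and late G1 still lay above the rest. The rise was 0.86 ± 0.14 (SE) (adjusted p = 0.00117) and the fall 0.79 ± 0.14 (SE) (adjusted p = 0.00201) without auxin. Rrm1 was at 158, 147 and 108 CPM in early G1 and 223, 199 and 159 in late G1. The 2 phases did not overlap, and the difference missed the threshold without auxin (0.49 ± 0.15 (SE), adjusted p = 0.0575), with an adjusted p of 0.0498 with auxin that every left-out library took above 0.05. With the replicate block Rrm1 rose in late G1 (adjusted p = 2.29e-05 without and 1.4e-05 with auxin), fell in G2 (0.0231 and 0.0393) and was higher in G2 than in early G1 (0.0121 and 0.00412).

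Tyms, thymidylate synthase, makes dTMP from dUMP and was at 73, 70.5 and 59.8 CPM in early G1, 111, 92.7 and 101 CPM in late G1 and 86.1, 78.9 and 69.1 in G2 without auxin. Its auxin-treated levels were 72.1, 67.6 and 66.7 CPM in early G1, 119.8, 99.9 and 103 CPM in late G1 and 87.7, 70.5 and 85.8 in G2. Its late G1 libraries were the highest, by 0.58 ± 0.11 (SE) over early G1 without auxin (adjusted p = 0.00319). Its fall to G2 missed the threshold without auxin (-0.38 ± 0.11 (SE), adjusted p = 0.0514) and passed with it (-0.41 ± 0.11 (SE), adjusted p = 0.0326). The fall with auxin was lost in 4 of the 6 leave-outs, run without the replicate block. With the block and all libraries the fall passed in both treatments (adjusted p = 0.000821 without and 0.000352 with auxin). The salvage kinase Tk1 had the smallest late minus early G1 values of the 5. It was at 30.4, 30.8 and 27.4 CPM in early G1, 36.4, 36.2 and 32.3 CPM in late G1 and 29.3, 25.8 and 27.9 in G2 without auxin. With auxin it was at 31.2, 30.6 and 28.4 CPM in early G1, 37.9, 38.8 and 35.4 CPM in late G1 and 31.4, 32 and 26.9 in G2. Late G1 was above early G1 in every library by 0.25 ± 0.088 (SE) without auxin, which did not pass (adjusted p = 0.105), and by 0.31 ± 0.088 (SE) with auxin, which did (adjusted p = 0.0348) and was lost in 5 of the 6 leave-outs. With the replicate block the untreated rise passed (adjusted p = 0.00854). Ung, the glycosylase that removes uracil from DNA, was at 71.5, 69.8 and 62.6 CPM in early G1, 114, 124 and 93.8 CPM in late G1 and 55.7, 59.9 and 56 in G2 without auxin. The auxin-treated values were 73.1, 70.9 and 67.5 CPM in early G1, 113, 118 and 108 CPM in late G1 and 60.9, 56 and 54.2 in G2. Late G1 was highest and G2 lowest with no overlap between phases, and the fall to G2 of 0.95 ± 0.092 (SE) without auxin was the next largest after Chaf1b (adjusted p = 2e-06).

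**Figure D3:**
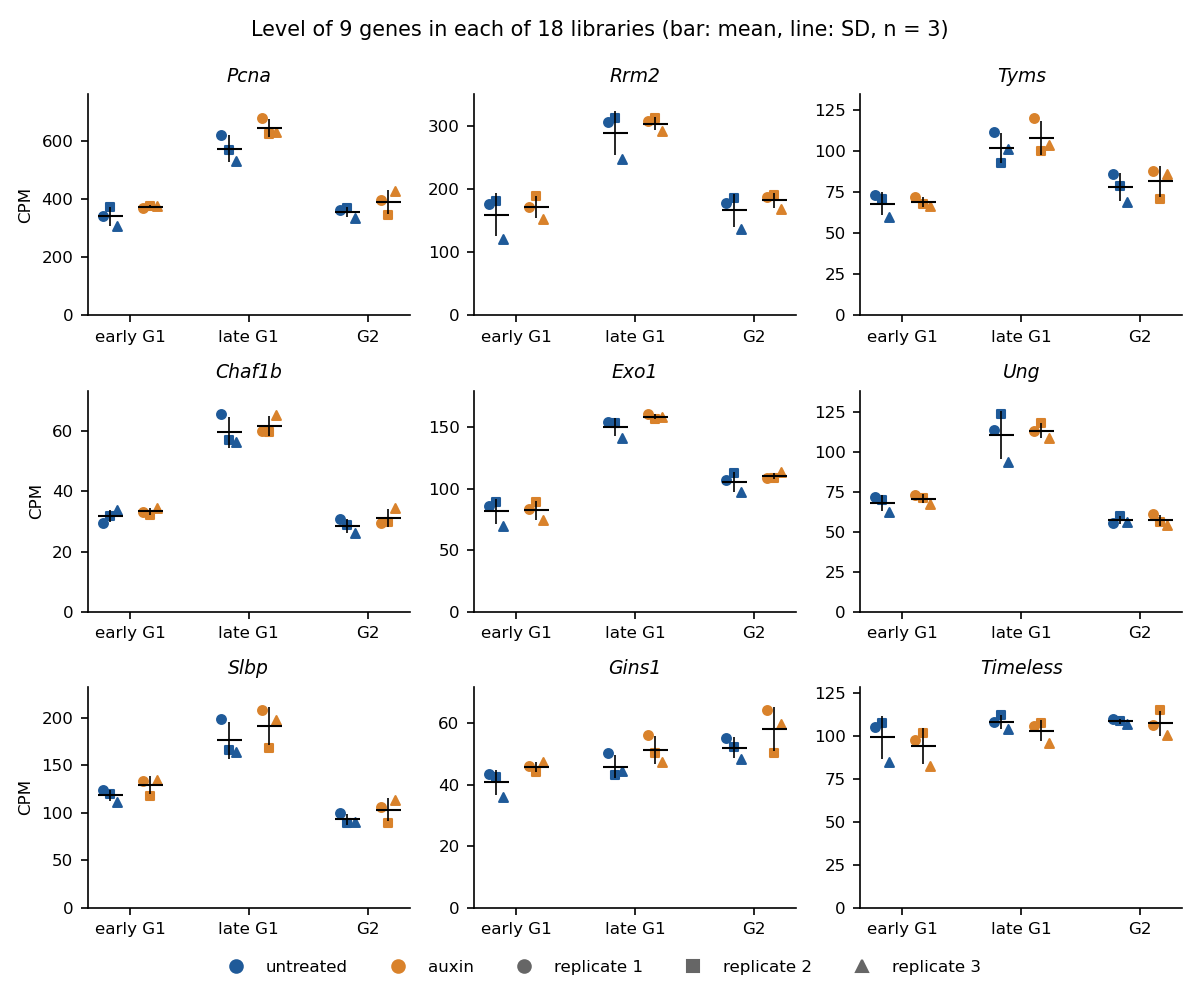
CPM (y axis from 0) of 9 genes in each of the 18 libraries by phase (x axis), untreated in blue and auxin in orange, with a marker for each replicate number and a bar and line for the mean and SD (n = 3). Pcna, Rrm2, Tyms, Chaf1b, Exo1, Ung and Slbp peak in late G1 in both treatments, Ung and Slbp are lowest in G2, and Gins1 and Timeless show no such peak.

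G2 against early G1 set the phases on both sides of the peak beside each other, and few genes passed in edgeR without the replicate block. Of the 41, 2 were higher in G2 without auxin, Exo1 and Chtf18, where 1.9% of all genes were called higher, and 0 were lower, where 1.7% were. With auxin Prim1, Exo1 and Chtf18 were higher and none lower, against 2.09% and 1.79% of all genes. None of these calls passed in all 6 repeats that left out a library, which were run without the replicate block. Exo1 was at 0.37 ± 0.092 (SE) without auxin (adjusted p = 0.0316, at most 0.146 without early G1 replicate 3), Chtf18 at 0.43 ± 0.11 (SE) (adjusted p = 0.0363, at most 0.139 without G2 replicate 3). With auxin the values were 0.42 ± 0.092 (SE) for Exo1 (adjusted p = 0.0139), 0.44 ± 0.11 (SE) for Chtf18 (adjusted p = 0.0314) and 0.40 ± 0.099 (SE) for Prim1 (adjusted p = 0.0303). The untreated count was 0 without early G1 replicate 1 or replicate 3, and 1 without early G1 replicate 2 or any 1 of the G2 libraries. The auxin count was 1 without early G1 replicate 1 or G2 replicate 1 and 0 without early G1 replicate 3 or G2 replicate 3. With the replicate block and all libraries, Exo1 passed at an adjusted p of 0.000523 and Chtf18 at 0.00351 without auxin. With auxin the block gave 0.000115 for Exo1, 0.00292 for Chtf18 and 6.36e-05 for Prim1.

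With the replicate number as a block, 15 genes were higher and 2 lower in G2 without auxin, where 7.79% and 6.95% of all genes were called, and 16 higher and 2 lower with auxin, where 8.03% and 7.16% were. The 2 lower genes were Ung and Slbp in both treatments. In that fit Slbp was at -0.35 ± 0.07 (SE) without auxin (adjusted p = 0.00169) and Ung at -0.25 ± 0.064 (SE) (adjusted p = 0.0113). In edgeR without the block, Slbp was at -0.34 ± 0.1 (SE) (adjusted p = 0.077) and Ung at -0.25 ± 0.091 (SE) (adjusted p = 0.157), with all 3 G2 libraries below all 3 of early G1 for each. DESeq2 called Slbp lower without auxin and Ung lower with it, and on log2(TPM + 1) Slbp was called lower without auxin. Groups did not overlap in 11 genes that were higher and 3 that were lower in G2 without auxin, where 10.2% and 11.8% of all genes did so, and 3 of 41 is below the latter share. With auxin they did not overlap in 15 that were higher and 3 that were lower, beside 10.7% and 12.3% of all genes. The median of the 41 was 0.16 in both treatments.

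The phase differences tracked each other in the 2 treatments, which share no library. Across the 41 genes the late minus early G1 values had a Pearson r of 0.956 and a Spearman rho of 0.94, G2 minus late G1 an r of 0.974 and G2 minus early G1 an r of 0.941. These are descriptions over genes, whose points share libraries and replicate numbers. In late G1, 27 genes were called in both treatments, Pola1 and Gins4 without auxin only, Rrm1, Tk1 and Pole2 with auxin only, and 9 in neither. With the replicate block Gins1 and Timeless were called in neither, and Rpa3 with auxin only. The difference between treatments was itself tested, and 0 of the 41 were called for any of the 3 phase comparisons, as 0 of all 16011 genes (0%) were. DESeq2 also called 0 of the 41. Of all genes, 222 had an unadjusted p under 0.05 for late minus early G1, 222 for G2 minus early G1 and 218 for G2 minus late G1. Of the 41, 0 did in any of them. The smallest unadjusted p was 0.288, for Pola1 in G2 minus late G1, where the difference of the changes was 0.18 ± 0.17 (SE) (adjusted p = 1). For late minus early G1 the lowest end of any gene's 95% interval of the difference was -0.515, for Pola1, on the log2 scale. The highest end was 0.543, for Pola2. Other genes had narrower intervals, such as Rpa2 at -0.233 to 0.275, and a difference inside a gene's own interval remains possible for it.

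**Figure D4:**
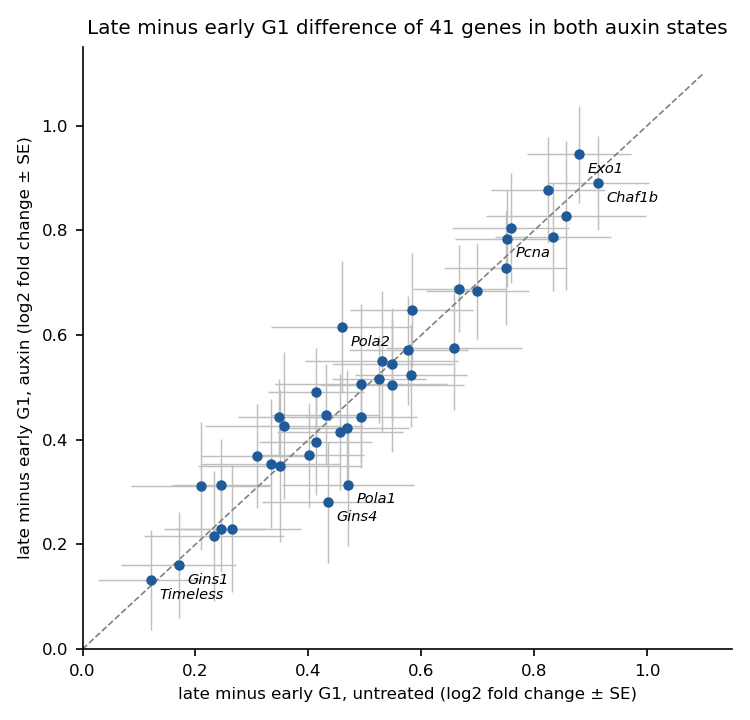
Late minus early G1 log2 fold change (± SE) of each of the 41 genes without auxin (x axis) and with auxin (y axis), with a dashed line of equal values. The points follow the line from Timeless and Gins1 near the origin to Exo1 and Chaf1b at the far end, and Pola1, at 0.156, is the farthest from it.

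None of the 41 genes passed the threshold for auxin within a phase. In early G1, late G1 and G2, 0 of 41 were called, where 0.106%, 1.02% and 0.668% of all genes were, and DESeq2 called 0. An unadjusted p under 0.05 was reached by 0 of the 41, beside 894, 1651 and 1237 of all 16011 genes tested. The fitted auxin effects ran from -0.14 to 0.19 for early G1, from -0.15 to 0.22 for late G1 and from -0.16 to 0.19 for G2. Pcna in late G1, at 0.17 ± 0.093 (SE), had all 3 auxin libraries above the untreated ones (adjusted p = 0.557). Libraries separated completely for 2, 3 and 1 genes in the 3 phases, all higher, beside 5.25%, 6.8% and 5.47% of all genes.

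Averaged over the phases, auxin again gave 0 calls among the 41, where 5.68% of all genes were called. At an unadjusted p under 0.05 were 7 of the 41, beside 3636 of all 16011 genes tested. With the replicate block 13 were called, 11 higher and 2 lower, beside 12.9% and 11.7% of all genes. The replicate numbers do not pair these libraries by the rule used, however. On log2(TPM + 1) 2 were called, both lower, where 716 of all genes tested were called lower and 61 higher. The largest averages were 0.16 ± 0.059 (SE) for Gins1 and -0.14 ± 0.058 (SE) for Lig1. The sign of the set depends on the scaling and its size on 3 libraries: 32 of 41 averages were positive on counts scaled by TMM (median 0.08, all genes 0.00633), and 0 of 41 on log2(TPM + 1) (median -0.11, all genes -0.08). Without the untreated libraries numbered 3, the TMM-scaled fit gave a median of 0.02 with 24 of 41 positive, and within early G1 a median of -0.013 with 18 positive. No direction of an auxin effect on the set is given for those reasons.

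Genes outside the set but of the same pathways were taken from lists written with earlier results of these data known. Of the Mcm2-7 helicase ring, 5 of 6 rose in late G1 in both treatments and 3 fell in G2 without auxin, 4 with it. Over all genes tested, 3.27% rose in late G1 without auxin and 3.21% with auxin. From late G1 to G2, 2.32% fell without auxin and 2.43% with auxin. Mcm5 was at 0.52 ± 0.091 (SE) and Mcm4 at 0.51 ± 0.1 (SE) for late minus early G1. Of a list of 6 cyclin, licensing and E2F factor genes, Ccne1, Ccne2 and Cdc6 rose in late G1 and fell in G2 in both treatments. The others passed neither of these comparisons without the replicate block. Ccne2, a cyclin of S-phase entry, was also lower in G2 than in early G1, at -1.02 ± 0.098 (SE) with auxin (adjusted p = 3.19e-06).

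Of 34 other replication factors tested, out of 36 listed, 15 rose and 1 fell in late G1 in each treatment. Over all genes tested, 3.27% rose and 3.75% fell without auxin, and 3.21% and 4.21% with it. A fall in 1 of 34 is below the share of all genes. Topbp1, which helps fire origins and activates ATR, rose by 0.72 ± 0.077 (SE) and was still 0.67 ± 0.077 (SE) above early G1 in G2 without auxin. Atad5, which unloads PCNA, rose by 0.66 ± 0.084 (SE) and fell in G2 (-0.52 ± 0.084 (SE)). Asf1b, the histone chaperone that hands histones to CAF-1, rose by 0.69 ± 0.1 (SE). Dbf4, the activator of the Cdc7 kinase, went the other way from the called members and was higher in G2 than in late G1 (0.57 ± 0.071 (SE), adjusted p = 3.71e-05). In G2 against late G1, 1 of the 34 was higher and 6 lower without auxin, where 2.72% of all genes were higher and 2.32% lower. A rise in 1 of 34 is near the share of all genes.

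Of 32 other genes of nucleotide synthesis, 8 rose and 1 fell in late G1 in each treatment, and 6 fell in G2 in each. Over all genes tested, 3.27% rose and 3.75% fell in late G1 without auxin, and 3.21% and 4.21% with it. From late G1 to G2, 2.32% fell without auxin and 2.43% with auxin. Shmt1, a serine hydroxymethyltransferase of the folate cycle that Tyms draws on, rose by 0.66 ± 0.088 (SE). Rrm2b, the p53-induced small subunit that can replace Rrm2, was instead lower in G2 than in early G1, at -0.90 ± 0.16 (SE) without auxin (adjusted p = 0.00355).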

How the data were processed

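RNA-seq of 18 libraries was used, and the 41 genes and all lists were chosen with earlier results of these data known. The authors deposited expected counts, rounded in the file to whole numbers, and TPM. Per the submitters' processing notes, STAR, RSEM, Bowtie2, MACS2 and mm9 were used, without versions or roles. A deposited profile table around genomic sites was not used here, and ChIP-seq, ATAC-seq and MNase-seq samples were not analysed here.

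filterByExpr by group kept 16011 of 37620 genes. The test was the robust quasi-likelihood F test of edgeR 4.0.16 (R 4.3.3), with TMM factors and 1 mean for each of the 6 groups, which left 12 residual degrees of freedom. P-values were adjusted by Benjamini-Hochberg over all tested genes, and a gene was called under 0.05. The SE is the size of the log2 fold change divided by the square root of F. The scripts were tested on simulated data.

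Total counts of 24841963 to 37587322 a library set the precision. Libraries of a group differed by a chi-square per degree of freedom of 14.7 to 53.9 over genes with at least 20 counts, so none was counted as a copy of another. Replicate numbers, taken from the labels' titles, were held to pair libraries where every same-number correlation of deviations from the group means was over 0.1. This held for the 6 phase comparisons (lowest 0.19) and for auxin in early and late G1, but not for auxin in G2 or averaged over phases (lowest 0.053). Values in all 18 libraries are given for up to 6 genes with the smallest p among those called in each phase comparison and always for Pcna, Rrm2, Tyms, Tk1 and Slbp. Up to 4 called genes a list are named from the other lists, and 1 gene that the rule names is not reported here.

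Alternatives were DESeq2 1.42.0, its size factors, no filter on low counts, a mean of at least 1 CPM, limma 3.58.1 on log2(TPM + 1), the replicate block, leaving out each library, and leaving out the 3 untreated libraries numbered 3.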

Additional observations from a re-analysis of the deposited data

How the results depend on the processing

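Of 102 single calls in the 6 phase comparisons, all 102 passed again with DESeq2, with its size factors, with a mean of at least 1 CPM and with the replicate block, 94 with no filter on low counts, 90 without the untreated libraries numbered 3 and 34 on log2(TPM + 1), and 0 changed direction. Counts of the 41 genes called moved by more than 1.5 times as follows. For G2 minus early G1 the main fit gave 2 without and 3 with auxin, all higher. DESeq2 gave 3 higher and 1 lower, Slbp, without auxin, and 4 higher and 1 lower, Ung, with it. No filter gave 1 higher without auxin, and log2(TPM + 1) gave 1 lower, Slbp, without auxin and 0 with it. The replicate block gave 17 and 18, of which 2 were lower in each treatment. Leaving out the untreated libraries numbered 3 gave 0 without auxin, and 5 higher and 1 lower with it. For G2 minus late G1 (18 and 20), log2(TPM + 1) gave 8 and 8 and the replicate block 29 without auxin. For late minus early G1 (29 and 30), log2(TPM + 1) gave 10 and 8. For auxin averaged over phases (0), log2(TPM + 1) gave 2, Rfc5 and Lig1, both lower, and the replicate block 13. The cause of these shifts was not tested. Leaving out 1 library gave 21 to 29 and 22 to 26 calls for late minus early G1 without and with auxin, 0 to 1 and 0 to 3 for G2 minus early G1, 12 to 17 and 12 to 15 for G2 minus late G1, and 0 to 2 for auxin averaged over phases, with 1 without late G1 untreated replicate 1 and 2 without G2 auxin replicate 2. Auxin within a phase and the 3 differences of its effect between phases gave 0 calls in each leave-out. The replicate block changed no other call count by over 1.5 times, and each of the 18 libraries correlated best with its own number.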
